A study of Drosophila melanogaster with 2 samples.

Results

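The 92 genes described here encode the proteins of the cytoplasmic ribosome. They were chosen by symbol: *RpL* or *RpS* followed by a number, *P* and a number, or *A*, with no leading *m*, which picks 92 of the 13942 genes in the files and leaves out the mitochondrial ribosome. Of the members, 54 are named for the large subunit (*RpL*, with the stalk genes *RpLP0*, *RpLP1* and *RpLP2*) and 38 for the small subunit (*RpS*). Sorted by protein, 68 members are the only gene for theirs, 21 are copies that share 10 proteins between them, and 3 (*RpL7-like*, *RpL24-like* and *RpLP0-like*) are relatives of ribosomal proteins whose yeast counterparts help to build the ribosome. The symbol rule misses *sta* (RpSA) and *Rack1*, which encode ribosomal proteins under other names.

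Whole ovaries of *w1118(x)* females, a white-eyed laboratory strain kept with males, were dissociated and sequenced with 10x Genomics 3′ kits at 6 weeks and at 1 week after eclosion, without enrichment for anterior structures. There was 1 library per age, so differences between ages have no replicate check, no p-value is given, and the age of the flies and the preparation of the library cannot be told apart. The intervals below are exact 95% intervals and cover counting error only. The sources do not say how many females made each library.

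A ribosome joins a large and a small subunit, and each carries its proteins in about equal numbers, so most cells keep these messages among their most abundant ones. In the fly, loss of 1 gene copy of many ribosomal proteins gives the *Minute* phenotype of slow growth and thin bristles. Several proteins have a second gene whose use is restricted, and *RpS19b*, *RpS10a*, *RpL22-like* and *RpL37b* are known for expression in the gonads.

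A 3′ library counts captured transcripts as unique molecular identifiers (UMIs). Each transcript is counted once from its end, so counts per 1000000 UMIs (CPM) can be set side by side between genes without dividing by length. The 6-week library had 162985928 UMIs in 20224 barcodes and the 1-week library 147628511 UMIs in 33317 barcodes. After limits on genes, UMIs and mitochondrial share, 9878 and 9131 cells were kept, with medians of 12585.5 UMIs per cell at 6 weeks and 10639 at 1 week. The mitochondrial limit removed unlike parts of the libraries, since the median mitochondrial share over all barcodes was 15.7% at 6 weeks and 42.9% at 1 week. The libraries had 178 barcodes in common, and 26 of these were kept as cells in both.

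The 92 genes were left out of the genes used to group cells. Each cell was still scaled by all its UMIs, members included, so the classes were not wholly free of the share compared. The 27 clusters of 1-week cells were named from marker genes, the 6-week cells took the class of their nearest 1-week cells, and 1995 and 1569 cells stayed unnamed. The named classes were Early-Mid FC-like follicle cells (5407 cells at 6 weeks and 5126 at 1 week), FSC + pFC-like stem and precursor follicle cells (1061 and 745), Late FC-like cells (77 and 134), escort-like cells (402 and 395), germ cell-like cells (85 and 110), muscle-like cells (510 and 367), gut or tubule-like cells (275 and 561), immune-like cells (49 and 81) and neuron or enteroendocrine-like cells (17 and 43). All 8 escort markers and all 9 muscle markers were at least 2-fold over the other cells at 6 weeks and at 1 week. In FSC + pFC-like cells 8 of the 9 markers did so at 6 weeks and 7 at 1 week. The other follicle names rested on a smaller part of their markers. These were 6 of the 14 in Early-Mid FC-like cells at both ages, and 8 at 6 weeks and 10 at 1 week of the 17 in Late FC-like cells. Of the 8 Early-Mid FC-like clusters, 4 had under 3 such markers (2050 cells at 6 weeks and 1968 at 1 week), and 3 of these, with *bdl*, *Ekar* and *dpp* among their leading genes, had no marker of the class in their top 10. Markers also differed in level between the libraries in every named class, by the limit set for members below. For the germ cell-like, Late FC-like, immune-like and neuron or enteroendocrine-like classes they are given beside the results. In FSC + pFC-like cells *eya* and *CadN* were higher at 6 weeks and *upd1* lower. In Early-Mid FC-like cells *Fas3* was higher and *Nep1* lower. *Mlc2* and *Mp20* were higher in muscle-like cells and *Con* in escort-like cells. *Uro* and *Jon65Aiii* were lower in gut or tubule-like cells. What these marker differences add to the age ratios was not tested.

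Ribosomal protein genes gave 44.4% of all UMIs in 6-week cells and 43.6% in 1-week cells. Of the 50 genes with the most UMIs, 44 were members at 6 weeks and 44 at 1 week. The share varied more between cell classes than between the ages. Early-Mid FC-like cells, which wrap the growing egg chambers, had the highest share, 49.8% at 6 weeks and 49.7% at 1 week, or 50.6% and 50.6% over the 4 clusters with at least 3 markers. Escort-like cells, which line the anterior germarium and guide early germ cells, had the lowest, 15.5% (15.4 to 15.5) at 6 weeks and 14.8% (14.7 to 14.8) at 1 week. The log2 ratio of Early-Mid FC-like over escort-like cells was 1.69 at 6 weeks and 1.75 at 1 week.

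Between these ends the order of the classes was the same at both ages. Late FC-like cells, which secrete the eggshell, had 45.1% at 6 weeks and 38.1% at 1 week. Germ cell-like cells had 39.7% and 35.5%, and FSC + pFC-like cells 32.4% and 29.8%. Follicle cells therefore spanned a wide range: their stem and precursor class lay well under the class of growing egg chambers. Gut or tubule-like cells had 32.7% at 6 weeks and 31.1% at 1 week, muscle-like cells 26.1% and 26.2%, immune-like cells 22.1% (22.0 to 22.3) and 20.8% (20.7 to 20.9), and neuron or enteroendocrine-like cells 18.0% (17.8 to 18.1) and 18.6% (18.4 to 18.7). The middle 50% of cells ran over 9.72 to 16.0% in escort-like cells and 42.9 to 53.6% in Early-Mid FC-like cells at 6 weeks. In the plot of shares by class, such ranges overlapped between neighbours in the order at both ages, so neighbours are not set apart by their cells.

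**Figure D1:**
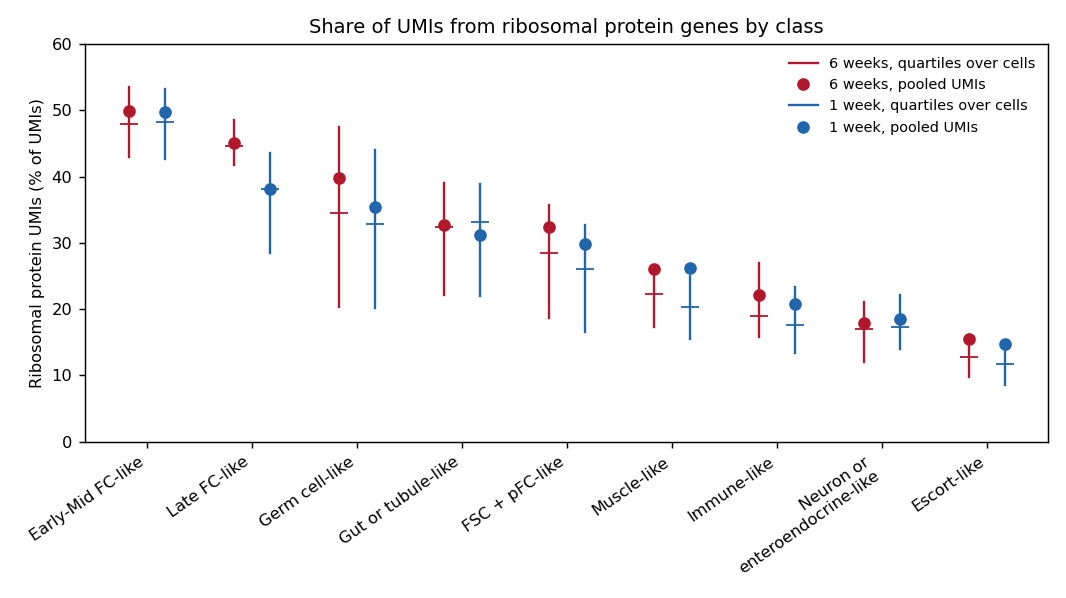
Share of a class's UMIs that came from the 92 ribosomal protein genes, in percent, with 6-week cells left and 1-week cells right for each class; dots are pooled UMIs, dashes the median cell and bars the quartiles over cells. Early-Mid FC-like cells stand near 50% at both ages and escort-like cells near 15%, while Late FC-like cells show the widest gap between ages (45.1% and 38.1%).

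The clusters within a class differed as well. Among Early-Mid FC-like clusters, the cluster led by *mid* and *Nep1*, markers of mid-stage follicle cells, had 54.5% at 6 weeks and 53.9% at 1 week. The cluster led by *bdl* had 42.5% and 42.0%. Both escort-like clusters were low: the one led by *wrapper* had 16.6% and 15.9%, and the one led by *Lmx1a* and *Wnt6* 11.5% and 10.0%. The lowest share of any cluster, 6.86% at 6 weeks and 6.73% at 1 week, was in an unnamed cluster of 49 and 112 cells led by *Hr4*.

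Among Early-Mid FC-like cells, those with more UMIs tended to have a higher share. Spearman's rho between a cell's share and its UMIs was 0.48 over 5407 of them at 6 weeks and 0.49 over 5126 at 1 week. It is a description in which both measures hold the same UMI total. Other classes varied: rho was -0.008 at 6 weeks and 0.44 at 1 week in Late FC-like cells. In neuron or enteroendocrine-like cells it was 0.42 and 0.02. Classes also differed in depth, with a median of 18130 UMIs per Early-Mid FC-like cell and 3016 per escort-like cell at 6 weeks. Among cells with 2000 to 5000 UMIs, a window chosen after the values had been seen, Early-Mid FC-like cells had 39.1% at 6 weeks and 38.7% at 1 week, and escort-like cells 12.8% and 12.0%. The gap between those classes was thus still there at like depth.

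Between the ages, the share in all cells differed by a log2 ratio of 0.027 (0.026 to 0.027). The sign of that small difference rested on the denominator: without mitochondrial genes the shares were 46.5% at 6 weeks and 46.3% at 1 week, and without yolk and eggshell genes as well 46.8% and 46.9%. In Early-Mid FC-like cells the order turned in the same way, with 52.0% at 6 weeks and 52.5% at 1 week once mitochondrial genes were left out. In muscle-like cells the shares became 27.6% and 29.4%.

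The share was higher at 6 weeks under each of these denominators in 6 of the 9 named classes: germ cell-like, escort-like, FSC + pFC-like, Late FC-like, immune-like and gut or tubule-like cells. In escort-like cells the order turned when cells with over 10% mitochondrial UMIs were left out (log2 ratio -0.13), and in gut or tubule-like cells it turned for the median cell (32.3% at 6 weeks and 33.1% at 1 week). In FSC + pFC-like cells the log2 ratio was 0.12 (0.12 to 0.12), and without mitochondrial genes the shares were 34.9% at 6 weeks and 32.4% at 1 week. The cluster led by *cas*, a marker of follicle precursors, had 31.4% at 6 weeks and 26.4% at 1 week, the cluster led by *upd1*, the ligand made by polar cells, 35.3% and 32.6%, and the cluster led by *CadN* 31.4% and 31.4%. The *CadN* cluster held 450 of the 1061 cells at 6 weeks and 158 of the 745 at 1 week.

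In Late FC-like cells the log2 ratio was 0.24 (0.24 to 0.25), but their other contents differed too. Yolk and eggshell genes gave 9.14% of their UMIs at 6 weeks and 17.1% at 1 week, and 10 of 12 measured markers of this class were lower at 6 weeks by a log2 ratio of 0.5 or more in size, with 0 higher. With mitochondrial, yolk and eggshell genes left out, the ribosomal protein share was 51.9% at 6 weeks and 49.1% at 1 week, a log2 ratio of 0.08. In germ cell-like cells the log2 ratio was 0.16 (0.16 to 0.17), and the 12 germ markers together were at 2512 CPM at 6 weeks and 6243 CPM at 1 week. The part of these differences in make-up was not tested.

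Member by member, the library held few large differences. Of the 92 genes, 89 had at least 30 UMIs over both libraries. *RpL10Aa* had 0 UMIs, and *RpS28a* and *RpS28-like* had 2 and 4 at 6 weeks and 2 and 1 at 1 week. The 68 single-copy genes lay between 2021 and 11456 CPM at 6 weeks and between 2011 and 11673 CPM at 1 week, a span of about 5.67-fold and 5.80-fold. The 20 members with the most UMIs made up 35.7% of the ribosomal protein UMIs at 6 weeks and 36.5% at 1 week, so no gene dominated the pool.

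*RpL27A*, a large-subunit protein, was the most abundant, with 11456 CPM at 6 weeks and 11673 CPM at 1 week. *RpS23*, which lies in the decoding centre of the small subunit, had 10556 and 10881 CPM. *RpLP1*, a protein of the stalk that recruits elongation factors, had 10144 and 10337 CPM. *RpS20*, a small-subunit protein, had 8575 CPM at 6 weeks and 8747 CPM at 1 week. The log2 ratios of these 4 ran from -0.04 for *RpS23* to -0.03 for *RpL27A*.

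A member was counted as higher or lower at a log2 ratio of 0.5 or more in size. In all cells 4 members were higher at 6 weeks and 0 were lower, against 6.52% and 11.5% of the 10056 genes measured. The 4, *RpL22-like*, *RpL37b*, *RpS10a* and *RpS19b*, were all rare gonad copies under 4 CPM, and they are described with the germ cells. With the copies of each protein summed, 0 were past the fold in either direction. The members' median log2 ratio was 0.03 over the 89, beside -0.01 over all genes measured.

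Among members with at least 200 UMIs, *RpL5* and *RpS6* stood highest after *RpS19b*. *RpL5* binds the 5S ribosomal RNA, and it had 3007 CPM at 6 weeks and 2658 CPM at 1 week, a log2 ratio of 0.18 (0.17 to 0.18). *RpS6* is the small-subunit protein phosphorylated by S6 kinase, and it had 3559 and 3174 CPM, a log2 ratio of 0.16 (0.16 to 0.17). *RpS27A*, made as a fusion with ubiquitin, had 5440 CPM at 6 weeks and 4960 CPM at 1 week (log2 ratio 0.13), and *RpL6* 4256 and 3883 CPM (0.13). The exons of *RpS27A* overlap those of *Ip259* on the same strand, so its reads may be shared.

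At the other end was *RpL39*, a small protein at the peptide exit tunnel. It had 2841 CPM at 6 weeks and 3172 CPM at 1 week, a log2 ratio of -0.16 (-0.17 to -0.15). *RpL34b* had 6679 and 7106 CPM (log2 ratio -0.09), its copy *RpL34a* 961 and 1002 CPM (-0.06), and *RpL38* 5267 and 5555 CPM (-0.08). *RpL7-like* had 148 UMIs at 6 weeks and 129 at 1 week, and its interval (-0.47 to 0.23) reached both sides of 0. No gene of this paragraph reached the fold.

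**Figure D2:**
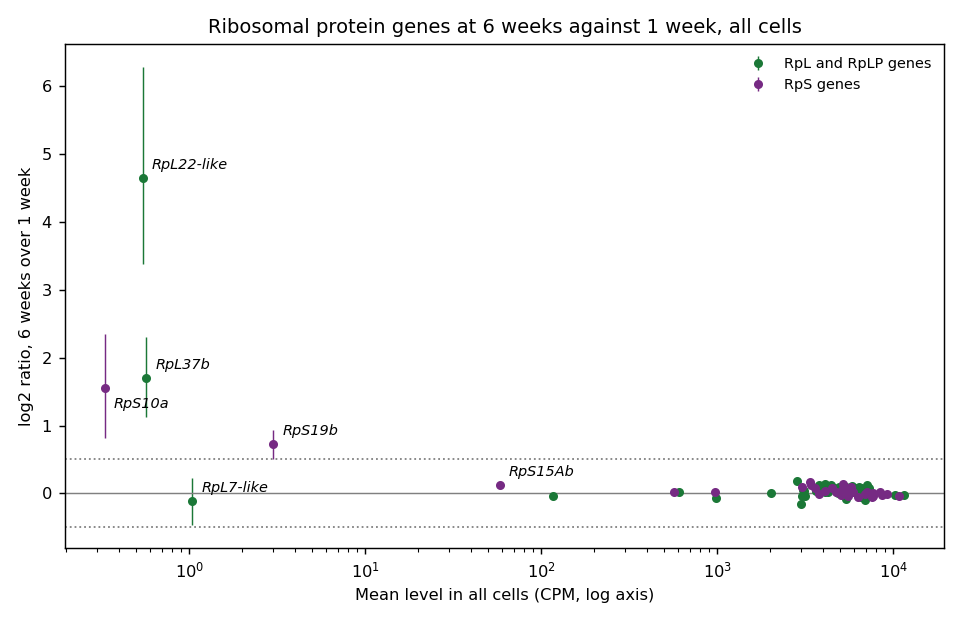
Log2 ratio of 6 weeks over 1 week in all cells against the mean level in CPM (log axis) for the 89 members with at least 30 UMIs; bars are exact 95% intervals and dotted lines the fold of 0.5. The abundant members lie between -0.16 and 0.18, and the 4 past the fold are copies under 4 CPM.

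These small differences could be followed across classes as a share of the ribosomal protein pool, which takes out the total. Of the 79 members with at least 200 UMIs in all 9 named classes, 6 had a higher share of the pool at 6 weeks in every class: *RpL5*, *RpS6*, *RpS27A*, *RpL6*, *RpL14* and *RpS3A*. Another 5 had a lower share in every class: *RpL34b*, *RpS16*, *RpS21*, *RpL27A* and *RpL9*. These counts went by sign alone, without an interval, and some of the values were small. The smallest rise over the classes was 0.01 for *RpS3A* and 0.02 for *RpL6*. The smallest fall was -0.008 for *RpS21* and -0.01 for *RpL27A*. For *RpL5* the log2 ratio of its share of the pool ran from 0.03 to 0.41 over the classes, and for *RpS6* from 0.07 to 0.27. For *RpL34b* it ran from -0.15 to -0.07. *RpL39* was lower in 8 of the 9 classes (-0.22 to 0.18). The classes come from the same pair of libraries and are not replicates.

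In germ cell-like cells 5 of the 88 members measured were higher and 0 lower, against 13.0% and 20.7% of 6082 genes, and the rare gonad copies *RpS19b*, *RpS10a*, *RpL37b* and *RpL22-like* were 4 of the 5. In other classes counts past the fold were 0 or 1. In Early-Mid FC-like cells 0 members were higher and 0 lower, against 5.14% and 5.21% of 8812 genes. The count was also 0 and 0 in FSC + pFC-like cells (4.26% and 8.54% of 7084 genes), escort-like cells (10.3% and 7.01% of 6064), Late FC-like cells (14.3% and 10.8% of 5822), muscle-like cells (13.5% and 7.91% of 5677) and gut or tubule-like cells (6.36% and 9.73% of 7575). In immune-like cells *RpL5* was higher, with 1739 CPM at 6 weeks and 1229 CPM at 1 week (log2 ratio 0.50, 0.34 to 0.66; 22.7% of 3176 genes were higher and 16.8% lower). These were 49 and 81 cells, whose 8 immune markers summed to 3319 CPM at 6 weeks and 4983 CPM at 1 week. Of the 7 markers with enough UMIs, *He*, *NimC1* and *nec* were higher and *Hml*, *eater* and *Pxn* lower by the fold, *atilla* was at 0 at 6 weeks, and the part of this make-up in the *RpL5* result was not tested. In neuron or enteroendocrine-like cells *RpL34a* was past the fold on 32 UMIs at 6 weeks and 41 at 1 week, with an interval across 0 (-0.20 to 1.22), where 16.0% of 2195 genes were higher and 14.4% lower. Of the 8 markers there, *AstC* was higher and *AstA*, *Tk* and *CCHa1* were lower, with sums of 67171 CPM at 6 weeks and 71276 CPM at 1 week. In unnamed cells *RpS19b* was lower on 13 and 17 UMIs, where 7.27% of 7977 genes were higher and 10.9% lower.

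The median over members followed each class's share. In FSC + pFC-like cells 80 of the 84 members measured were above 0 with a median log2 ratio of 0.12, beside -0.05 over all genes measured there. The highest with at least 200 UMIs was *RpLP0*, the base of the stalk, with 2632 CPM at 6 weeks and 2091 CPM at 1 week (log2 ratio 0.33, 0.30 to 0.37). Its partner *RpLP2* had 5093 and 4222 CPM (0.27), and *RpL12*, which sits beside the stalk, 3747 and 3120 CPM (0.26). These ratios include the rise of the whole class share. Of the ribosomal protein UMIs, *RpLP0* took 0.811% at 6 weeks and 0.701% at 1 week, and *RpLP2* 1.57% and 1.42%. *RpLP1* took 2.20% and 2.21%, so by share of the pool the stalk did not move as a whole. Genes outside it had a higher share at 6 weeks as well, with 0.590% and 0.527% for *RpL5* and 1.22% and 1.11% for *RpL3*. In Late FC-like cells 84 of 84 were above 0, with a median of 0.24 beside 0.09 over all genes. In muscle-like cells 39 of 84 were above 0, with a median of -0.0079 beside 0.08.

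The level of *RpS19b* (3R:23932729-23933530, minus strand, build BDGP6) was highest in germ cell-like cells, at 224 CPM at 6 weeks and 110 CPM at 1 week (log2 ratio 1.02, 0.73 to 1.32). They had 399 of its 553 UMIs at 6 weeks and 127 of its 269 at 1 week, so over 50% of the 1-week UMIs lay outside this class. It gave 5.20% (4.71 to 5.72) of RpS19 UMIs there at 6 weeks and 2.84% (2.37 to 3.37) at 1 week. In Early-Mid FC-like cells its level was 1.02 CPM at 6 weeks and 1.14 CPM at 1 week, and in escort-like cells 3 UMIs at each age. Without the 10 cells with the most *RpS19b* UMIs, the share in germ cell-like cells was 0.479% at 6 weeks and 0.460% at 1 week, so a few cells carried it at both ages. *RpS19a*, the other copy, had 4794 CPM in all cells at 6 weeks and 4708 CPM at 1 week.

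*RpL22-like*, *RpL37b* and *RpS10a* came from still fewer cells. *RpL22-like* had 155 UMIs in 4 cells at 6 weeks and 5 UMIs in 1 cell at 1 week, and 2 germ cell-like cells held 84 and 64 of the 155. The same pair of cells held 80 and 40 of the 129 *RpL37b* UMIs at 6 weeks, against 32 UMIs at 1 week. They had 6 and 19 UMIs of *bam*, which marks dividing cysts, 14 and 10 of *nos*, a stem cell and cyst gene, and 0 of *osk*. The 1-week cell with *RpL22-like* had 1 *bam* UMI, 7 *nos* UMIs and 0 of *osk*. In the first 6-week cell *RpL22-like* had 84 UMIs and *RpL22* 55, and in the second 64 and 20, so the copy outnumbered its partner there. In the 1-week cell *RpL22-like* had 5 UMIs and *RpL22* 66.

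*RpS10a* had 73 UMIs in 13 cells at 6 weeks and 20 in 10 cells at 1 week, of which germ cell-like cells held 70 and 16. No UMI of *RpL22-like* was seen outside germ cell-like and unnamed cells. Among the 3535 RpL22 UMIs of escort-like cells at 6 weeks, 0 were *RpL22-like*, and among 674526 in Early-Mid FC-like cells also 0. With 3 UMIs taken as the limit for a count of 0, the share in escort-like cells could be up to 0.0849%. This limit is not the exact interval used elsewhere.

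The germ cells captured also differed in their markers between the ages, and the part of this in the copies' age differences was not tested. Of the 12 germ markers, *bam*, *ovo* and *aub* were higher in 6-week germ cell-like cells by 0.5 or more, and *vas*, *orb*, *osk*, *exu* and *BicD* were lower by as much. *osk* had 783 CPM at 6 weeks and 3443 CPM at 1 week. Germ cell-like cells with at least 1 *bam* UMI, a split made after the values had been seen, numbered 27 and 17, and those without 58 and 93. In the cells with *bam*, *RpS19b* had 338 CPM at 6 weeks and 232 CPM at 1 week, and in those without 59.0 and 49.5 CPM. *RpL22-like* had 154 and 5 UMIs in the cells with *bam* and 0 and 0 in those without.

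Other copies were used in every class. *RpS14a* and *RpS14b* lie next to each other on X (7933742-7934677 and 7934898-7935792, both on the plus strand) and encode near-identical proteins, so the split of their reads is uncertain. *RpS14b* gave 23.9% of their UMIs at 6 weeks and 24.8% at 1 week in all cells. Its share was highest in escort-like cells, at 30.2% (28.3 to 32.2) and 31.6% (29.4 to 33.7), and lowest in FSC + pFC-like cells at 6 weeks, at 21.7% (21.2 to 22.3), against 23.6% (22.9 to 24.3) at 1 week.

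*RpL34a* gave 12.6% of RpL34 UMIs at 6 weeks and 12.4% at 1 week in all cells. It was highest in the germ cell-like class (16.99% and 17.6%), followed by the escort-like class (16.3% and 16.1%), and lowest in neuron or enteroendocrine-like cells (6.07% and 3.996%, on 32 and 41 UMIs). *RpS15Ab* gave 1.67% of RpS15A UMIs at 6 weeks and 1.68% at 1 week in all cells. Escort-like cells stood out again, with 5.41% (4.43 to 6.53) and 5.39% (4.33 to 6.61), and FSC + pFC-like cells had 3.26% (3.02 to 3.52) and 3.53% (3.20 to 3.89), beside 1.49% and 1.48% in Early-Mid FC-like cells. *RpL37a* had 5240 CPM at 6 weeks and 5118 CPM at 1 week in all cells, *RpS10b* 5723 and 5403 CPM, *RpS28b* 6169 and 6423 CPM, *RpL22* 5581 and 5583 CPM and *RpL10Ab* 6895 and 6960 CPM. *RpL37A*, which differs from *RpL37a* only by a capital, is another protein and had 6027 and 5736 CPM.

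**Figure D3:**
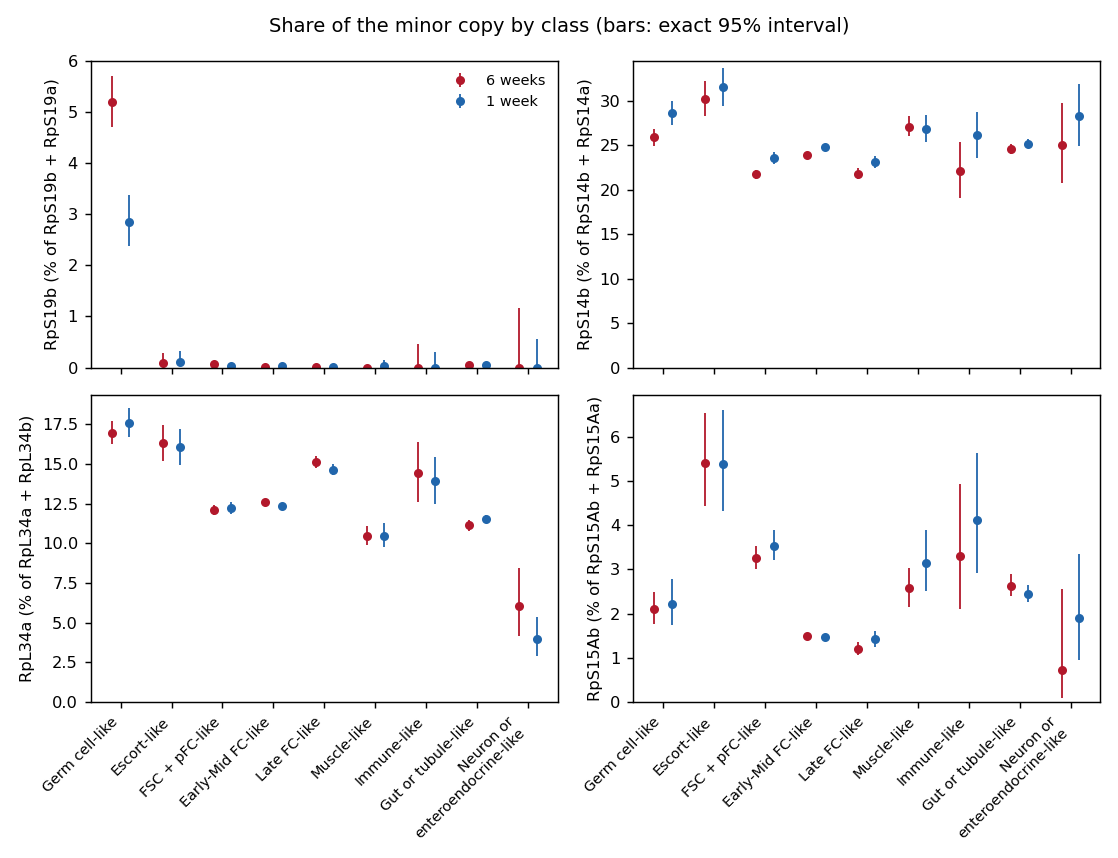
Share of the minor copy among the UMIs of both copies, in percent, for 4 proteins by class, with 6 weeks left and 1 week right; bars are exact 95% intervals. *RpS19b* reaches 5.20% and 2.84% in germ cell-like cells and stays near 0 elsewhere, while *RpS14b* lies between 21.7% and 30.2% at 6 weeks in every class.

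The make-up of the pool also differed by class among single-copy genes. Each member's share of the ribosomal protein UMIs of a class was set against its share in all other cells of the same library. Over the 68 single-copy genes the highest share in any class was a median of 1.31-fold over the lowest at 6 weeks and 1.27-fold at 1 week. *RpS18*, which lies in the head of the small subunit, was the steadiest and ranged over classes from 1.85 to 2.004% of the pool at 6 weeks and from 1.81 to 2.05% at 1 week. *RpL3*, which lies near the peptidyl transferase centre, and *RpL38* ranged most, by 2.09-fold and 1.88-fold over classes at 6 weeks and 1.96-fold and 2.002-fold at 1 week.

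*RpL38*, known in the mouse for effects on the translation of chosen messages, was high in neuron or enteroendocrine-like cells, at 1.76% of the pool at 6 weeks and 2.05% at 1 week. The log2 ratio to the other cells was 0.57 and 0.69. It was also high in escort-like cells (0.44 and 0.39) and gut or tubule-like cells (0.39 and 0.34), and low in muscle-like cells (-0.34 and -0.32) and Early-Mid FC-like cells (-0.17 and -0.17). *RpL3* was high in muscle-like cells, at 1.66% and 1.49% of the pool (0.55 and 0.45), and low in gut or tubule-like cells, at 0.803% and 0.775% (-0.52 and -0.52). In germ cell-like cells *RpL3* was low as well (-0.52 and -0.38). The sign of each of these pairs was the same at both ages.

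**Figure D4:**
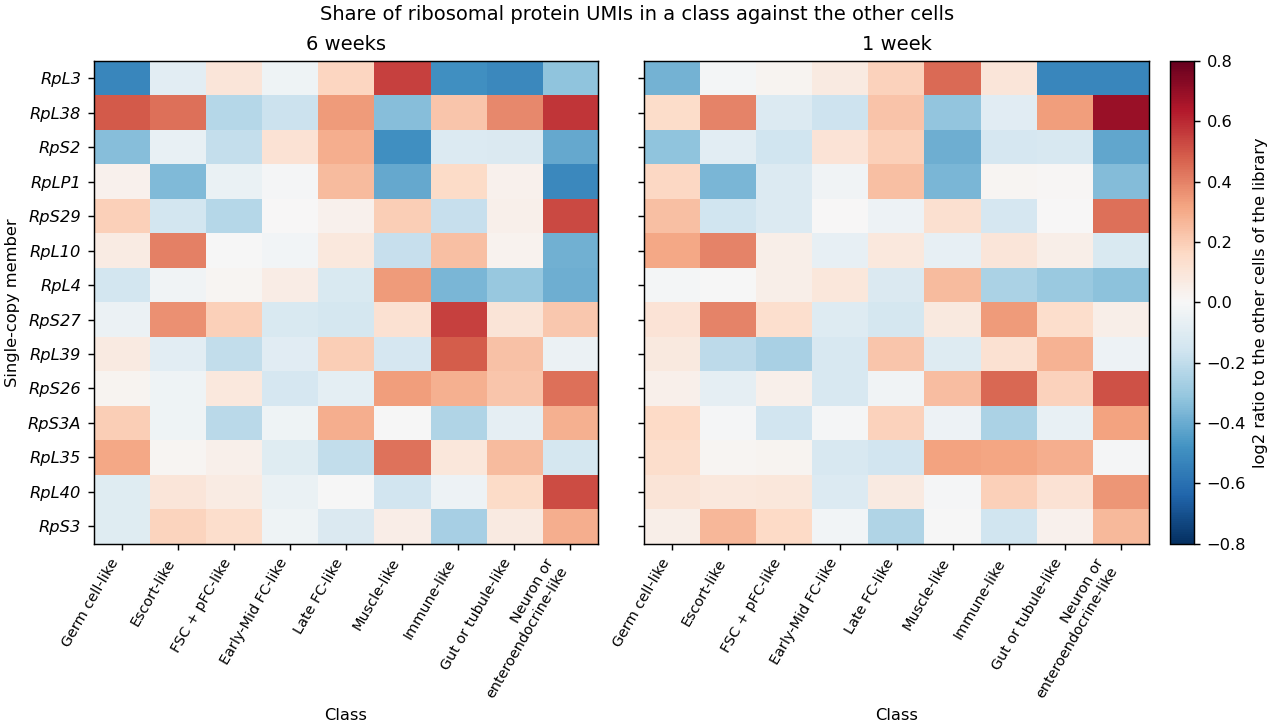
Log2 ratio of a gene's share of ribosomal protein UMIs in a class to its share in the other cells of the library, for the 14 single-copy members whose share ranged most over classes, at 6 weeks (left) and 1 week (right). *RpL3* is high in muscle-like cells (0.55 and 0.45) and low in gut or tubule-like cells (-0.52 and -0.52), and *RpL38* is highest in neuron or enteroendocrine-like cells (0.57 and 0.69).

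Other extremes followed by class. *RpLP1* was low in escort-like cells (-0.35 at 6 weeks and -0.36 at 1 week), neuron or enteroendocrine-like cells (-0.51 and -0.35) and muscle-like cells (-0.41 and -0.37), and high in Late FC-like cells (0.25 and 0.24). *RpS2* was low in muscle-like cells (-0.49 and -0.39). *RpS27* was high in immune-like cells (0.55 and 0.34) and in escort-like cells (0.36 and 0.40). *RpL22* was low in immune-like cells (-0.43 and -0.27) and gut or tubule-like cells (-0.29 and -0.29). It was also low in Late FC-like cells (-0.32 and -0.23) and neuron or enteroendocrine-like cells (-0.27 and -0.47). *RpL22* was high in FSC + pFC-like cells (0.29 and 0.29).

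Of the copies, *RpS15Ab* was high in FSC + pFC-like cells (0.97 and 1.06) and gut or tubule-like cells (0.72 and 0.61) and low in Early-Mid FC-like cells (-0.73 and -0.76). *RpL24-like* lay further from 0 than any single-copy member in escort-like cells (0.70 and 0.69), muscle-like cells (0.71 and 0.54) and Late FC-like cells (-0.89 and -1.16). Its yeast counterpart joins the early large subunit and is later replaced by the mature protein. Of the 82 members with at least 200 UMIs at each age in escort-like cells, 76 had a log2 ratio of the same sign at both ages, and 55 of 82 did in germ cell-like cells. For every class but Early-Mid FC-like itself, the other cells are mostly of that class, so these ratios are largely set against it.

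The balance of the subunits barely moved. Large-subunit genes gave 58.6% of ribosomal protein UMIs at 6 weeks and 58.4% at 1 week in all cells. They gave 59.2% and 58.9% in escort-like cells, 58.7% and 58.4% in germ cell-like cells, 58.5% and 58.4% in Early-Mid FC-like cells, and 56.8% and 56.5% in neuron or enteroendocrine-like cells.

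Genes that work with the ribosome were followed from 6 lists. In all cells 0 genes of any list were past the fold in either direction, against the 6.52% and 11.5% of all genes given above. The 8 elongation genes had a median log2 ratio of 0.15, the highest being *NAT1*, a relative of the initiation factor eIF4G that was placed in this list, with 155 CPM at 6 weeks and 124 CPM at 1 week (0.33, 0.30 to 0.36). *eEF1alpha1*, which brings aminoacyl-tRNA to the ribosome, had 10216 and 9312 CPM (0.13), and *eEF2*, which drives translocation, 1293 and 1160 CPM (0.16). The 27 initiation genes had a median of 0.08, from *eIF5B*, the factor for subunit joining (-0.30, 210 CPM at 6 weeks and 258 CPM at 1 week), to *eIF5* (0.37, 27.2 and 21.0 CPM).

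In all cells the medians of the lists for making ribosomes lay on the other side of 0. The 28 biogenesis genes had a median of -0.07, from *Bka* (33.2 CPM at 6 weeks and 42.9 CPM at 1 week, log2 ratio -0.37) to *Ns2*, a nucleolar GTPase (57.4 and 51.4 CPM, 0.16). The 9 genes of RNA polymerase I, which transcribes ribosomal RNA, had a median of -0.10, with *Tif-IA*, its initiation factor, at 75.4 and 72.9 CPM (0.05). Among the 18 growth and stress regulators the median was 0.02. *Xrp1*, the factor that responds to ribosomal protein loss, had 428 CPM at 6 weeks and 381 CPM at 1 week (0.17, 0.15 to 0.19), and *Myc*, a driver of ribosome production, 1896 and 1845 CPM (0.04). Within classes both passed the fold in places, as did many genes. Of all genes measured, 13.0% were higher in germ cell-like, 14.3% in Late FC-like and 10.3% in escort-like cells. In neuron or enteroendocrine-like cells 16.0% were higher, and in muscle-like cells 13.5%. *Myc* was higher at 6 weeks in germ cell-like cells, with 1409 CPM against 835 CPM at 1 week (0.75, 0.65 to 0.86), and in Late FC-like cells (0.59, 0.54 to 0.65), escort-like cells (0.58, 0.49 to 0.68) and neuron or enteroendocrine-like cells (0.53, 0.22 to 0.83), beside -0.07 in Early-Mid FC-like cells. *Xrp1* was higher in muscle-like cells, with 602 CPM at 6 weeks and 380 CPM at 1 week (0.66, 0.51 to 0.82). *Thor*, of the same list, passed the fold in both directions. At 6 weeks it was higher in Late FC-like (1.48, 1.37 to 1.60) and neuron or enteroendocrine-like cells (1.25, on 48 and 37 UMIs). *Thor* was lower in FSC + pFC-like (-0.90, -1.03 to -0.76), escort-like (-0.71, -0.99 to -0.44) and immune-like cells (-1.90, on 9 and 54 UMIs). Of all genes measured, 8.54%, 7.01% and 16.8% were lower in these classes. Biogenesis genes also passed the fold within classes, such as *Nop56* in Late FC-like cells (0.56, 0.46 to 0.66). *Fib* did so in immune-like cells (0.98, on 48 and 39 UMIs). The 5 genes of the rescue and storage list had a median of 0.06, and the ribosomal proteins in it, *sta* (6537 and 6152 CPM, 0.09) and *Rack1* (3315 and 3098 CPM, 0.10), lay within the range of the members.

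Biogenesis transcripts did not follow the ribosomal protein share in every class. Their summed level was highest in germ cell-like cells, at 5839 CPM at 6 weeks and 5519 CPM at 1 week, and 4463 and 4601 CPM in Early-Mid FC-like cells, whose ribosomal protein share was higher. Escort-like cells had 2086 and 1942 CPM, close to the 2079 and 2155 CPM of muscle-like cells, although the ribosomal protein share was 15.5% and 14.8% in escort-like and 26.1% and 26.2% in muscle-like cells. Neuron or enteroendocrine-like cells were lowest, at 843 and 906 CPM. The direction between ages differed by class. The sum was higher at 6 weeks in germ cell-like, escort-like, FSC + pFC-like (2734 and 2574 CPM), Late FC-like (3029 and 2505) and immune-like cells (2137 and 1528). It was lower in Early-Mid FC-like, muscle-like, gut or tubule-like (2544 and 2550 CPM) and neuron or enteroendocrine-like cells.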

How the data were processed

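The authors processed 10x Genomics 3′ libraries of ovary cells, for which the submitters' processing notes name Cell Ranger 9.0.0 and the build BDGP6, and deposited raw UMI counts per gene and barcode. Every deposited barcode held at least 500 UMIs. The labels name the v4 kit, and the study's methods v3.3 and v4. Reads that match several genes equally are not counted, which lowers near-identical copies. Cell classes were not given and were rebuilt. Barcodes were kept as cells from 500 genes and 1000 UMIs upward if mitochondrial genes gave 20% of UMIs or less. The 1-week cells were clustered on 2000 variable genes, without mitochondrial genes and the 92 members, over 30 principal components (20 neighbours, Leiden resolution 1; leidenalg 0.10.2, scikit-learn 1.9.0, Python 3.11.15), and 6-week cells took the majority class of 30 nearest 1-week cells. A cluster was named from at least 3 markers that were 2-fold over the other cells, under limits set after the clusters had been seen. Clusters with fewer, few genes of their own and at least 3 Early-Mid markers in 25% of their cells were named Early-Mid FC-like. Doublets were scored by the share of simulated doublets among a cell's neighbours, and removing 799 cells at 6 weeks and 1217 at 1 week was an alternative only.

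Counts were summed per class and library. Ratios of 6 weeks over 1 week are of counts per 1000000 UMIs, with exact 95% binomial or Poisson intervals (scipy 1.17.1). The members and lists were chosen with earlier results of these data known. The text names the copies, the members with the most UMIs, the 5 highest and 5 lowest log2 ratios with at least 200 UMIs, members past the fold and the extremes of each class. Other genes named were chosen after their values were seen. Of the pathway genes, 2 symbols could not be matched, and 2 entries (a member under an old name and a gene of another role) were left out. Coordinates are from Ensembl release 115 (BDGP6). Some members that this rule picks are not reported here. Promoter motifs were not analysed here. Alternatives included edgeR 4.0.16 TMM scaling of the deposited counts.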

Additional observations from a re-analysis of the deposited data

Results flagged for a closer look

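The log2 ratio of the ribosomal protein share, 6 weeks over 1 week, took opposite signs in different classes, each with a counting interval that left out 0. It was 0.24 in Late FC-like cells, 0.16 in germ cell-like cells, 0.12 in FSC + pFC-like cells, 0.089 in immune-like cells, 0.072 in gut or tubule-like cells, 0.070 in escort-like cells and 0.0034 in Early-Mid FC-like cells, against -0.047 in neuron or enteroendocrine-like cells, of which there were 17 at 6 weeks and 43 at 1 week. *RpS19b* likewise had a log2 ratio of 1.02 in germ cell-like cells (399 UMIs at 6 weeks and 127 at 1 week) and -1.21 in unnamed cells (13 and 17 UMIs). With 1 library per age, neither difference between classes was tested.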

How the results depend on the processing

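No paired analysis was possible because each age had 1 library, and for the same reason no replicate could be left out. The log2 ratio of the share in all cells, 0.027, was -0.00018 with a mitochondrial limit of 10%, 0.065 with no such limit, 0.024 with at least 1000 genes, 0.023 without doublets, 0.0079 without mitochondrial genes, -0.0040 without mitochondrial, yolk and eggshell genes, -0.0072 for the median cell, 0.026 with classes weighted equally and 0.089 among cells of 2000 to 5000 UMIs. In Early-Mid FC-like cells it turned to -0.012 without mitochondrial genes, -0.013 without yolk and eggshell genes too, -0.0092 for the median cell and -0.00083 at Leiden resolution 0.5. In muscle-like cells it turned to 0.16 with no mitochondrial limit, 0.14 for the median cell, 0.10 with both libraries clustered together, 0.037 at resolution 0.5, 0.055 with ribosomal protein genes among the variable genes and 0.058 in the depth window. It was -0.13 in escort-like cells at the 10% limit, and -0.033 for the median cell and -0.052 in the depth window in gut or tubule-like cells. The cause of these changes was not tested.

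The log2 ratio of the share in Early-Mid FC-like over escort-like cells kept its sign. At 6 weeks it was 1.65 at the 10% limit, 1.69 without a limit, 1.64 with at least 1000 genes, 1.78 without doublets, 1.64 without mitochondrial genes, 1.64 without yolk and eggshell genes too, 1.90 for the median cell, 1.52 clustered together, 1.67 at resolution 0.5 and 1.61 in the depth window. In the same order it was 1.52, 1.81, 1.69, 1.94, 1.67, 1.67, 2.04, 1.72, 1.74 and 1.69 at 1 week. The 4 members past the fold became 0 with copies summed.

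The *RpS19b* share in germ cell-like cells was 0.479% at 6 weeks and 0.460% at 1 week without the 10 cells richest in the copy, 8.25% and 6.20% with *bam*, and 1.28% and 1.25% without *bam*. The *RpL34a* share was 12.47% in all cells at 1 week without doublets, and the *RpS15Ab* share in FSC + pFC-like cells was 3.56% at 6 weeks at resolution 0.5 and 3.89% at 1 week without doublets. The large-subunit share was 58.5% at 6 weeks and 58.4% at 1 week at the 10% limit, and 58.6% and 58.5% without it. The depth window, the *bam* split, leaving out the *CadN* cluster and leaving out the Early-Mid clusters with under 3 markers (log2 ratio 0.0021 in that class, against 0.0034 with them) were chosen after seeing the data. Rare copies such as *RpL22-like* rest on a handful of cells, so their levels are limited by cells captured, not by UMIs.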
